A study of Sus scrofa with 12 samples.

Results

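The genes of adrenergic and muscarinic signalling examined here were 9 genes chosen by symbol: the adrenergic receptors ADRB1, ADRB3, ADRA1A and ADRA1B, the muscarinic receptor CHRM2, the receptor kinases GRK2 and GRK5, and the adenylyl cyclases ADCY5 and ADCY6. All 9 were found among the 35682 genes counted in pig heart, and 8 of them were among the 13844 genes that had enough reads to be tested. ADRB3 fell under the filter on low counts and is given as reads only.

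The libraries came from Yorkshire pigs of 10 to 12 weeks in which a balloon closed the left anterior descending coronary artery for 60 minutes before blood flow was restored. All animals received tacrolimus, mycophenolate mofetil and prednisolone from day 9. On day 14 a left thoracotomy was done, and either 10 vascular organoids made of endothelial progenitor and smooth muscle cells or fibrin glue alone was placed on the heart. Tissue was taken 28 days after that operation. The border zone was the tissue next to the infarct and the remote zone was taken from the posterior wall, so the remote zone belongs to the same injured and treated heart and is not healthy tissue. The 6 animals, numbered 1022, 1322, 1323, 1623, 1922 and 3622, gave 1 library per zone, 12 in all. Which animals received organoids was not used here. Zones were taken from the sample titles, although the extraction note attached to every sample speaks of the border zone.

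Noradrenaline from sympathetic nerves and circulating adrenaline act on the heart mainly through the β1 receptor, which couples to the stimulatory G protein, switches on adenylyl cyclase and raises cyclic AMP. Acetylcholine from the vagus acts through the M2 receptor, which couples to the inhibitory G protein and holds adenylyl cyclase back, while α1 receptors couple to Gq and phospholipase C. G protein-coupled receptor kinases phosphorylate receptors that are in use, which lets arrestins bind and ends the signal.

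Total counts on genes ranged from 15130210 to 30526110 in the border zone and from 20091415 to 31618680 in the remote zone. Mitochondrial genes took 5.69% to 17.3% of counts on the border side and 13.6% to 33.5% on the remote side. The remote zone library of animal 3622 was the highest, with the next at 21.4%, and had the lowest TMM scaling factor, 0.671. A pair of border zone libraries stood apart as well. That of animal 3622 had 28024 genes detected, against 20148 or fewer in every other library. That of animal 1022 had the lowest mean log2 CPM (reads per gene scaled to the size of the library) over 11 cardiomyocyte markers, 9.94, where the other border zone libraries were at 11.78 to 12.34 and the remote zone libraries at 12.12 to 12.51. No marker with an identifier in the files was at 0 in all libraries. Of 14 cardiomyocyte markers listed, 11 had an identifier, and their summed CPM was at least 13627 in every library. The cardiomyocyte list had a lower mean on the border side in every animal, although 0 of its 11 genes passed the test. Of the 12 fibroblast and matrix genes, 9 passed it, all 9 being higher beside the infarct where 2.06% of all genes were, and the median log2 fold change over the list was 2.77. That count of 9 was 1 with the animal as a block, 8 without animal 1022, 10 without 1322 and 0 without any of 1323, 1623, 1922 and 3622. Of all genes tested, the same fits called 41 with the block, 163 without 1022 and 519 without 1322. They called 3 without 1323, 0 without 1623, 15 without 1922 and 0 without 3622, so few genes of any kind passed there. In whole tissue, fewer cells of a type and less RNA per cell cannot be told apart.

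**Figure D1:**
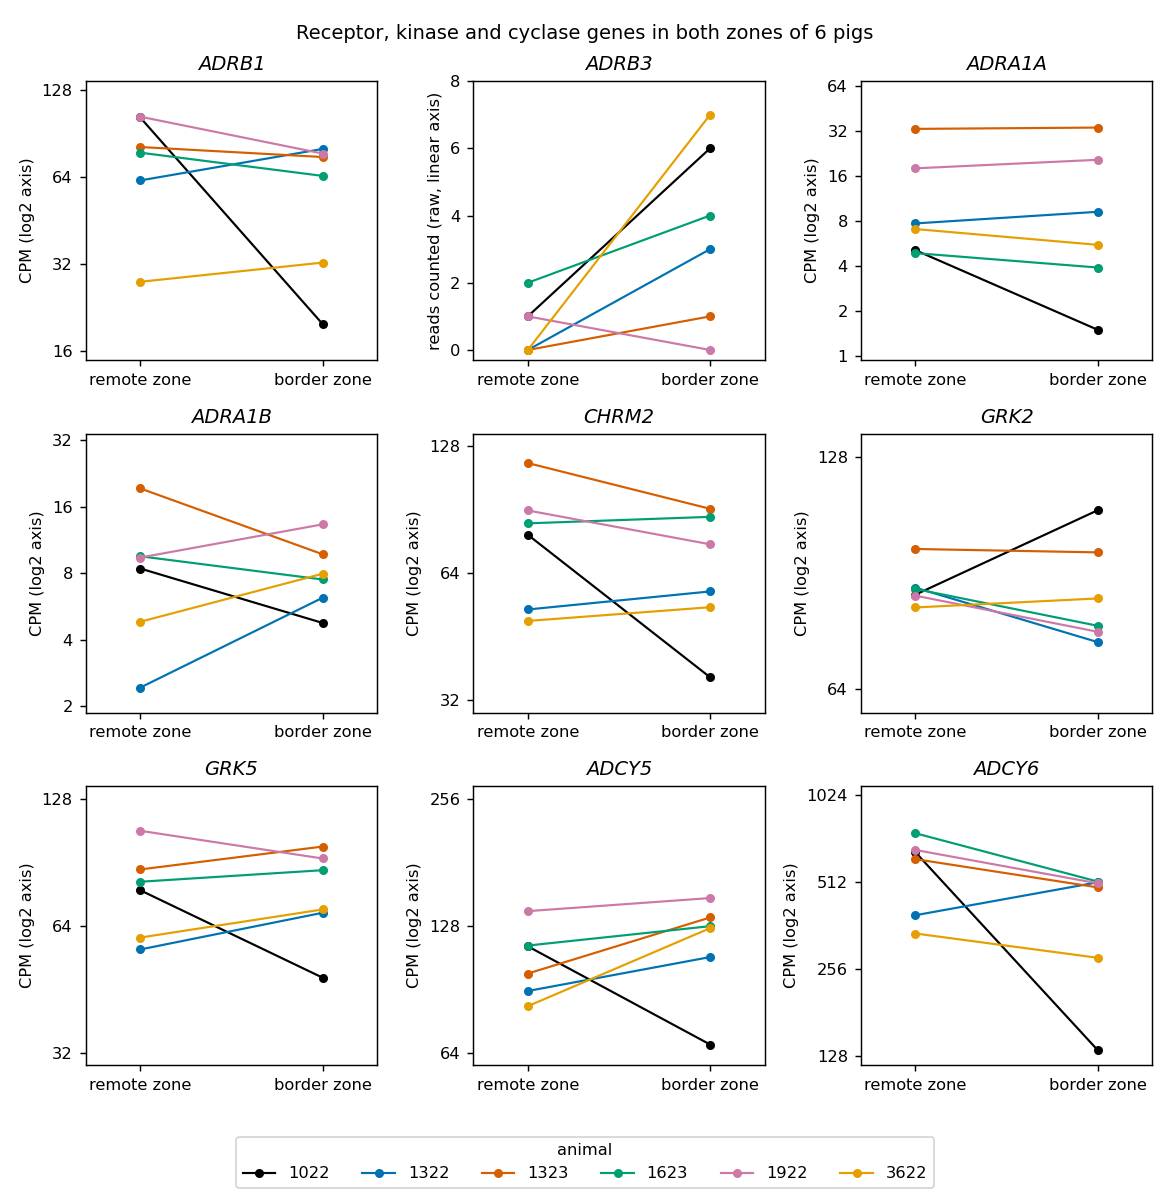
Level of each of the 9 genes by library, in CPM on a log axis and as reads for ADRB3, with border zone and remote zone as separate columns and a line joining the 2 libraries of an animal. The points of the zones overlap for every gene, and the border zone library of animal 1022 lies lowest in its zone for 7 of the 9 genes.

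None of the 8 genes tested passed the threshold between the zones. In the quasi-likelihood fit of edgeR, adjusted by Benjamini-Hochberg over all genes tested, 0 of 8 had an adjusted p under 0.05, beside 2.07% of all genes (2.06% higher in the border zone and 0.0144% lower). At an unadjusted p under 0.05 the count was also 0 of 8, where 24.7% of all genes reached that level. With the animal as a block, which compares the 2 zones within each heart, 0 of 8 were called, beside 0.296% of all genes (0.289% higher and 0.00722% lower), and the Wald test of DESeq2 called 0 of 8, beside 10.2% (8.42% higher and 1.83% lower). For all 8 genes the libraries of the zones overlapped, while 2.69% of genes tested had zones that did not. The median log2 fold change over the 8 genes, border over remote, was -0.08, and that over all genes tested was 0.04. Of the 8 fold changes, 7 were below 0 and 1 was above it. The 95% intervals were wide for the α1 receptors and narrow for the receptor kinases, and a p that misses the threshold does not show that a gene was the same in both zones.

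ADRB1 encodes the β1 receptor, the main route by which sympathetic drive raises heart rate and force. The gene (ENSSSCG00000010647) lies on the plus strand at chr14:124400330-124401739 of Sscrofa11.1, where RefSeq gives a single coding exon. In the border zone ADRB1 was at 19.9 CPM in animal 1022, 80.0 in 1322, 75.0 in 1323, 64.6 in 1623, 77.1 in 1922 and 32.4 in 3622. In the remote zone the same animals were at 103, 62.2, 81.2, 77.6, 103 and 27.8 CPM. Animal 3622 was low in both zones, while animal 1022 was lowest in the border zone and next to highest in the remote zone. The log2 fold change was -0.38 ± 0.36 (SE, 6 libraries a zone), with a 95% interval from -1.16 to 0.39 and an adjusted p of 0.534. ADRB1 was higher in the border zone in 2 of 6 animals, and without animal 1022 the log2 fold change was -0.10.

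ADRB3, the β3 receptor, is a low-abundance receptor in heart muscle that is linked to nitric oxide signalling. It lies on chromosome 15 (plus strand, chr15:48468803-48478370). The border zone libraries held 6, 3, 1, 4, 0 and 7 reads of it, in the order of animals above, and the remote zone libraries held 1, 0, 0, 2, 1 and 0 reads. That made 21 reads against 4 in all, with 1 border zone and 3 remote zone libraries at 0. The library of animal 3622 that stood apart gave the most reads, and the other border zone libraries summed to 14. A library at 0 still allows up to 3 reads, counting error alone considered. Above that floor were 3 of the 6 border zone libraries and none of the remote zone libraries. More reads came from the border side in 5 of 6 animals. Without the filter on low counts, edgeR gave ADRB3 a log2 fold change of 2.17 ± 1.32 (SE) with an adjusted p of 0.255.

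The α1 receptors act on contraction and growth of heart muscle cells through Gq. ADRA1A, the α1A receptor, is on the minus strand at chr14:10623391-10733378. Its border zone levels were 1.49, 9.16, 33.5, 3.88, 20.4 and 5.50 CPM in animals 1022, 1322, 1323, 1623, 1922 and 3622. The remote zone of the same hearts gave 5.07, 7.65, 32.8, 4.84, 17.9 and 7.02 CPM. Animal 1323 was highest in both zones, followed by 1922, 1322 and 3622 in the same order, and only the places of 1022 and 1623 changed. The highest border zone library exceeded the lowest 22.5-fold, and the highest remote zone library exceeded the lowest 6.78-fold. Counts behind these values ran from 45 to 1138 reads. Between zones, the log2 fold change of ADRA1A was -0.03 ± 0.68 (SE), with an interval from -1.48 to 1.42 and an adjusted p of 0.985. With the animal as a block it was -0.29 with an interval from -0.87 to 0.30 and an adjusted p of 0.468.

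ADRA1B, the α1B receptor, lies on chromosome 16 (minus strand, chr16:63550123-64010838). It ranged from 4.76 to 13.3 CPM in the border zone (median 7.72) and from 2.42 to 19.4 in the remote zone (median 8.90). The 50 reads of the remote zone library of animal 1322 were the fewest of any library. The zones overlapped throughout, with 3 of 6 animals higher on the border side. Its log2 fold change was -0.13 ± 0.40 (SE), with an interval from -0.99 to 0.72 and an adjusted p of 0.868.

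CHRM2 encodes the M2 receptor, through which the vagus slows the heart. It lies on the minus strand at chr18:12455139-12600314, and its exons overlap those of LOC100621475 on the opposite strand. The libraries do not mark the strand, so reads of CHRM2 and of that neighbour cannot be told apart where they overlap. Border zone levels were 36.2, 57.9, 91.0, 87.0, 74.9 and 53.1 CPM in the order of animals above. Remote zone levels were 78.9, 52.5, 117, 84.0, 90.1 and 49.3 CPM. Animals 1322 and 3622 were the 2 lowest in the remote zone, and animal 1022 was the lowest in the border zone. The log2 fold change of CHRM2 was -0.24 ± 0.26 (SE), with an interval from -0.79 to 0.32 and an adjusted p of 0.599. Without animal 1022 it was -0.11.

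GRK2 and GRK5 are the main receptor kinases of heart muscle. GRK2 (minus strand, chr2:5209435-5227543) had the narrowest spread of the 8 genes, from 73.7 to 109 CPM in the border zone (median 80.6) and from 81.7 to 97.3 CPM in the remote zone (median 85.6). Its highest value, 109 CPM, came from the border zone of animal 1022, where 7 of the other genes were at their border zone minimum. The log2 fold change was -0.01 ± 0.14 (SE) with an interval from -0.31 to 0.28, the narrowest of the 8, and an adjusted p of 0.961. GRK5 (plus strand, chr14:129113933-129351135) ranged from 48.2 to 98.6 CPM in the border zone (median 78.3) and from 56.2 to 107 CPM in the remote zone (median 79.5). Its log2 fold change was -0.02 ± 0.20 (SE), with an interval from -0.46 to 0.42 and an adjusted p of 0.970. In animal 1022 GRK5 was lower in the border zone, and it was higher there in 4 of the other 5 animals.

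ADCY5 and ADCY6 are the main adenylyl cyclases of heart muscle, both slowed by the inhibitory G protein and by calcium. ADCY5 (plus strand, chr13:136965746-137133795) was at 66.8, 108, 134, 128, 149 and 126 CPM in the border zone of animals 1022, 1322, 1323, 1623, 1922 and 3622. The remote zone gave 114, 89.6, 98.5, 115, 139 and 82.4 CPM. ADCY5 was thus higher in the border zone in 5 of 6 animals, all but 1022, yet the zones overlapped. Its log2 fold change was 0.16 ± 0.20 (SE), with an interval from -0.27 to 0.58 and an adjusted p of 0.662. It was 0.30 without animal 1022, 0.056 without 1323 and 0.074 without 3622.

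ADCY6 (minus strand, chr5:14834420-14855309) was at 135, 511, 491, 514, 507 and 280 CPM in the border zone of the same animals. In their remote zone it was at 649, 393, 614, 755, 661 and 340 CPM. ADCY6 was thus lower in the border zone in 5 of 6 animals, all but 1322. Its log2 fold change of -0.49 ± 0.32 (SE) was the largest of the 8 in size, with an interval from -1.17 to 0.20 and an adjusted p of 0.365. With the animal as a block the log2 fold change was -0.55 and the adjusted p 0.281. Without animal 1022 it was -0.26.

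**Figure D2:**
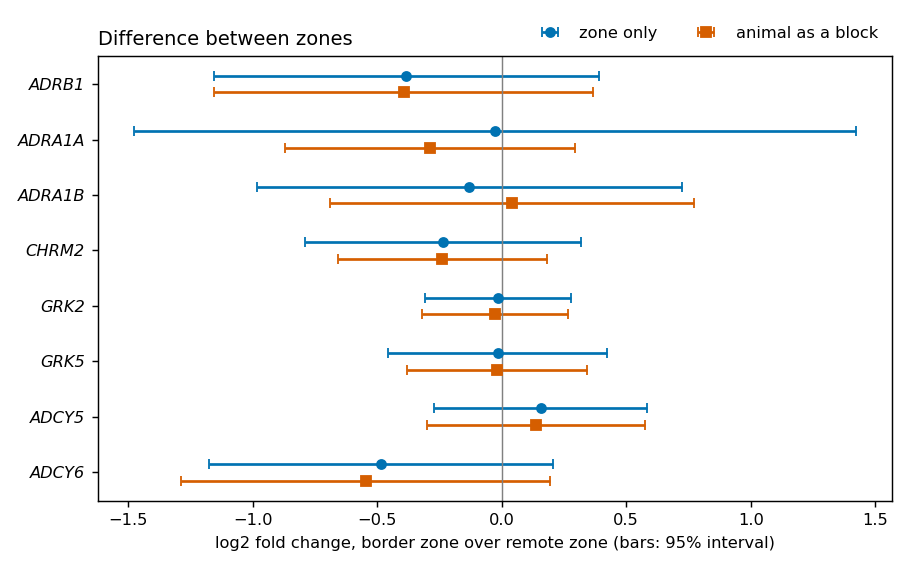
Log2 fold change of the border zone over the remote zone for the 8 genes tested, with 95% intervals, without the animal as a block and with it. Every interval crosses 0, that of GRK2 is the narrowest, and that of ADRA1A is much shorter with the block.

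Pairs of genes were then set against each other within each library, which takes away any scaling of the library. Values are log2 ratios of counts, not corrected for gene length, so only their change between zones carries a meaning. For 6 animals the smallest p of the exact test that swaps the sign within animals is 0.03125. The ratio of ADCY5 to ADCY6 was higher in the border zone in 5 of 6 animals. As plain ratios of counts the border zone stood at 0.497, 0.211, 0.273, 0.248, 0.294 and 0.450 and the remote zone at 0.176, 0.228, 0.160, 0.152, 0.210 and 0.242, in the order of animals above. Only animal 1322 went the other way, by -0.11 on the log2 scale, while animal 1022 moved most. The mean difference, border minus remote, was 0.71 ± 0.52 on the log2 scale (SD, n = 6), with a two-sided exact permutation p of 0.0625 and 0.25 after adjustment over the 4 ratios. When the libraries were treated as unpaired, the exact permutation p was 0.00866, or 0.0346 after adjustment, with the same difference. That form ignores that each animal gave both zones, so the paired p of 0.0625, or 0.25 after adjustment, is the one that follows the design.

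The other 3 ratios had no common direction. The ratio of ADRB1 to CHRM2, which sets the stimulatory receptor against the inhibitory one, differed by -0.19 ± 0.56 (SD, n = 6; two-sided exact permutation p 0.594, adjusted 0.792) and was higher on the border side in 3 of 6 animals. Without animal 1022 it turned to 0.021. That of ADRA1A to ADRA1B differed by -0.39 ± 0.83 (SD, n = 6; exact permutation p 0.25, adjusted 0.5), and by -0.68 without animal 1323, -0.25 without 1322 and -0.26 without 3622. That of GRK2 to GRK5 differed by -0.01 ± 0.55 (SD, n = 6; exact permutation p 1). In the last of these, animal 1022 stood at 1.05 and the others lay between -0.52 and 0.06.

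**Figure D3:**
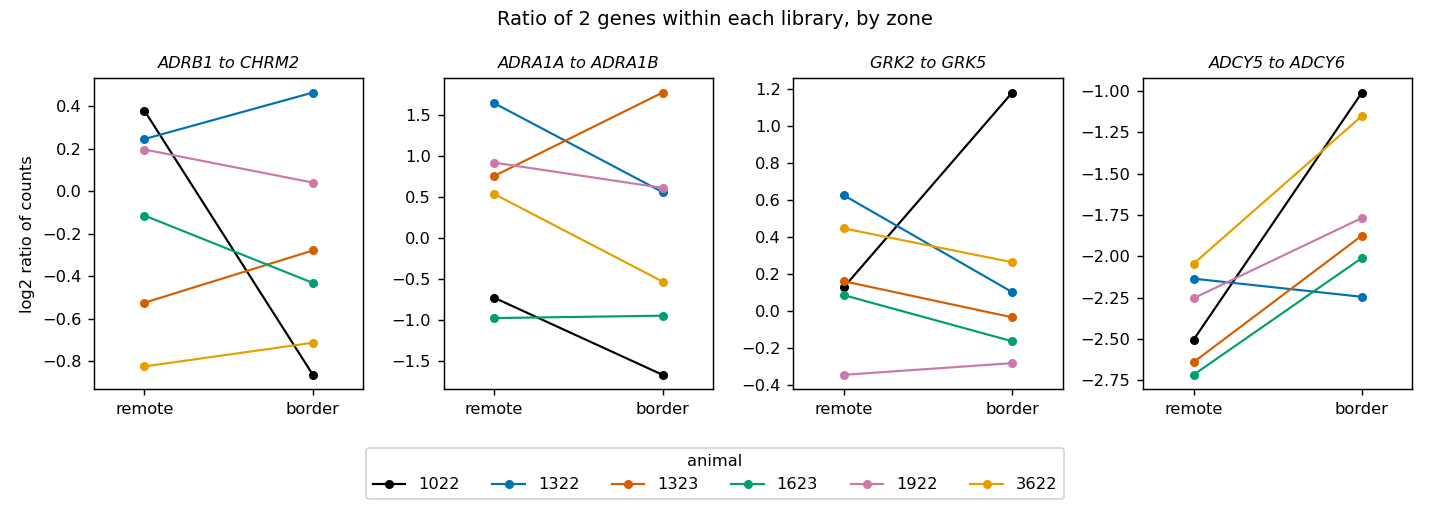
Log2 ratio of counts for 4 pairs of genes in each library, with a line joining the border zone and remote zone libraries of an animal. For ADCY5 to ADCY6, 5 of the 6 lines run higher to the border zone, and the other 3 panels show lines in both directions.

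The genes were also read against the mean log2 CPM of the 11 cardiomyocyte markers. In each animal the border minus remote difference of a gene was taken less that of the list, as a description with no test. The list mean differed by -0.68 ± 0.79 (SD, n = 6), so a gene at the same level in both zones would stand 0.68 above the list. Over the animals the list difference ran from -2.24 in animal 1022 to -0.03, with a median of -0.42. The value of 0.68 thus rests much on animal 1022 and would be smaller without it. Of all genes tested, 36.5% were above the list in every animal, and the median gene stood 0.73 above it. On this scale ADCY5 stood at 0.82 ± 0.50 (SD, n = 6) and GRK5 at 0.66 ± 0.52, both near the value of an unchanged gene. CHRM2 at 0.44 ± 0.43 and ADRA1A at 0.36 ± 0.19 lay between that value and the list. These 4 genes were above the list in 6 of 6 animals, where the list itself was lower on the border side in 6 of 6. ADCY6 lay nearest to the list, at 0.11 ± 0.26 with 3 of 6 animals above it. ADRB1 was at 0.25 ± 0.40 with 4 of 6 animals above it, and at 0.12 without animal 3622. GRK2 was at 0.65 ± 1.01 with 5 of 6 animals above, and its value in animal 1022 was 2.60. Without that animal the mean of GRK2 was 0.26, which is not to be set against 0.68, since the value of an unchanged gene falls without that animal too. ADRA1B was at 0.75 ± 0.82 with 4 of 6 animals above. The part of the cardiomyocyte markers in the levels of these genes was not tested.

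**Figure D4:**
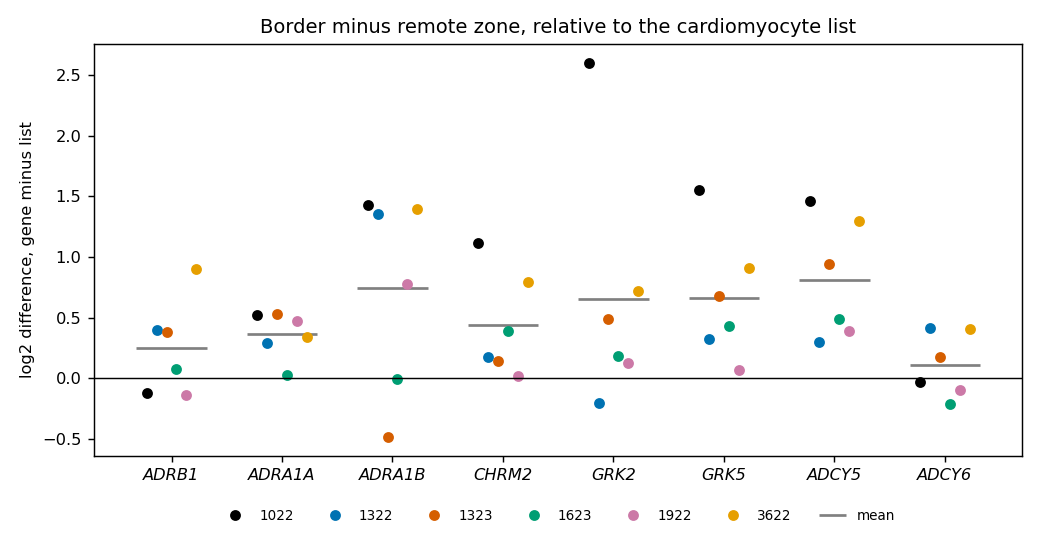
Border minus remote difference of each gene less that of the mean of 11 cardiomyocyte markers, on the log2 scale, with 1 point per animal and a bar at the mean over 6 animals. ADCY5, GRK5, CHRM2 and ADRA1A lie above 0 in all 6 animals, as 36.5% of all genes tested did, and ADCY6 lies closest to 0. A gene with no difference between zones would average 0.68.

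The 6 animals were also compared with each other over both zones, a test chosen after the values had been seen. The log2 range over the 6 animal means was 3.55 for ADRA1A, wider than that of 99.2% of genes tested, where the median gene had 0.951. GRK2 had a range of 0.276, and only 1.64% of genes tested had a smaller one. ADRA1B spanned 1.80, ADRB1 1.57, ADCY6 1.08, CHRM2 1.01, ADCY5 0.716 and GRK5 0.703. By edgeR's quasi-likelihood test of the animal terms, 0 of 8 genes passed, beside 0.195% of all genes, and ADRA1A had the lowest adjusted p at 0.0697. On simulated data this test recovered 1% of 2-fold and 57% of 4-fold changes between animals. A count of 0 therefore does not show that the animals were alike. The likelihood ratio test of DESeq2 called ADRA1A with an adjusted p of 1.82e-12, and called 12.7% of all genes. Without animal 1022 the edgeR test called 6.23% of all genes, among them ADRA1A (adjusted p 0.00348), ADRB1 (0.0277) and CHRM2 (0.0412). What separates the animals was not tested.

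Beyond these 9 genes, 101 other genes of the pathway were listed by role, of which 94 had an identifier in the files and 82 were tested. In the edgeR fit 0 of 82 passed the threshold in either direction, against the 2.07% of all genes, and with the animal as a block 0 passed, against 0.296%. At an unadjusted p under 0.05, 17 were higher in the border zone, beside 17.0% of all genes, and 5 were lower, beside 7.78%. DESeq2 called 11 higher and 1 lower of 85, beside 8.42% and 1.83% of all genes. The median log2 fold change of the 82 was -0.09, with 34 above 0 and 48 below. For values that follow, the adjusted p is that of edgeR's test with region alone.

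Receptors and G proteins came first. Of the other adrenergic receptors, 4 were tested and all 4 fold changes were below 0. ADRA2C, an α2 receptor that restrains noradrenaline release, had the smallest p, with a log2 fold change of -0.97 ± 0.38 (SE; adjusted p 0.148). ADRA2B at -0.10 turned to 0.0071 with the animal as a block, and ADRA1D at -0.09 was higher on the border side in 3 of 6 animals. ADRA2A fell under the filter on low counts, and DESeq2 put it at 3.47 (its adjusted p 0.0749). Of 4 other muscarinic receptors, 3 had an identifier in the files and none of these had enough reads. Among 13 G protein subunits, 7 were above 0, led by the γ subunit GNG12 at 1.46 ± 0.40 (0.0637) and the β subunit GNB4 at 1.11 ± 0.38 (0.110). GNG12 was higher in the border zone in 6 of 6 animals, as were 1621, or 11.7%, of the genes tested.

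Regulators of receptor and G protein signalling had medians above 0. For 5 other receptor kinases and arrestins the median was 0.56, with 3 genes above 0 and 2 below. GRK6 was at 0.59 ± 0.26 (adjusted p 0.185) and the arrestin ARRB1 at 0.67 ± 0.30 (0.189). The kinase GRK3 was at -0.43 ± 0.19 (0.190), lower in the border zone in 6 of 6 animals, and GRK4 was at -0.34 ± 0.20 (0.304). At an unadjusted p under 0.05 this list had 2 genes higher and 1 lower, beside 17.0% and 7.78% of all genes. With the animal as a block it had 0 higher and 2 lower, and the 82 pathway genes together had 12 and 7. The share over all genes was not counted for that fit, so the turn cannot be judged. For 6 RGS proteins, which speed the switching off of G proteins, the median was 0.62. RGS10 was at 2.34 ± 0.60 (0.0539) and RGS2 at 1.21 ± 0.43 (0.118). RGS10 was higher there in 6 of 6 animals, from 0.825 to 18.4 CPM against 0.728 to 2.08 CPM.

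The enzymes that make and break cyclic AMP were mixed. Of 6 other adenylyl cyclases 5 were above 0, with ADCY2 at 2.31 ± 0.61 (adjusted p 0.0591) and ADCY7 at 1.77 ± 0.49 (0.0674). ADCY2 was low in every library, at most 6.18 CPM. Of 13 phosphodiesterases 5 were above 0, and PDE10A at 1.19 ± 0.30 (0.0534) and PDE1A at 1.21 ± 0.38 (0.0894) had the smallest p.

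Downstream of cyclic AMP, 11 of 15 genes of protein kinase A and its anchors were below 0. The 2 with the smallest p were above it, AKAP12 at 1.12 ± 0.27 (adjusted p 0.0501) and AKAP5 at 2.03 ± 0.68 (0.105). AKAP12, a scaffold that binds protein kinase A, was at 33.8 to 96.6 CPM in the border zone and 25.7 to 38.9 CPM in the remote zone. It came closest to the threshold of all 82 genes. In the Gq branch, 5 of 7 genes of phospholipase C and protein kinase C were above 0, with PLCB1 at 0.92 ± 0.23 (0.0509) and PRKCD at 1.86 ± 0.48 (0.0535).

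The effectors in heart muscle lay on the other side. All 7 cardiac targets of protein kinase A were below 0, with a median of -0.51, and the median of the cardiomyocyte markers was -0.51 too. The lists share TNNI3, PLN and RYR2, so these medians are not independent. Both medians are the value of PLN itself, so their match says nothing further about the lists. TNNI3, the inhibitory troponin, was at -1.10 ± 0.43 (adjusted p 0.148), and the phosphatase inhibitor PPP1R1A was at -0.97 ± 0.44 (0.192). Both were lower in the border zone in 6 of 6 animals, as were 1535 of the 13844 genes tested. The 2 subunits of the acetylcholine-activated potassium channel, KCNJ5 at -0.74 ± 0.62 (0.477) and KCNJ3 at -0.19 ± 0.48 (0.839), did not pass, and KCNJ3 was at 0.0061 with the animal as a block. Of the genes that make, take up and break down noradrenaline and acetylcholine, 4 had enough reads, among them the transporter SLC22A3 at -0.35 ± 0.38 (0.600) and DDC, which makes dopamine, at -0.74 ± 1.02 (0.688). DDC turned direction with the animal as a block, at 1.10 with an adjusted p of 0.504. It was higher in the border zone in 5 of 6 animals, with a median of 1.11 CPM against 0.385 CPM, while the highest value of all, 12.0 CPM, was in a remote zone library. TH, the first enzyme of noradrenaline synthesis, gave at most 1 read in any library. The 4 genes with enough reads were all below 0 in the main fit. The transporters SLC6A2 and SLC18A1 went the other way, but fell under the filter with at most 31 and 81 reads. DESeq2 put them at 2.61 (its adjusted p 0.0568) and 2.50 (0.0460), where it called 8.42% of all genes higher. Each was higher in the border zone in 5 of 6 animals.

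**Figure D5:**
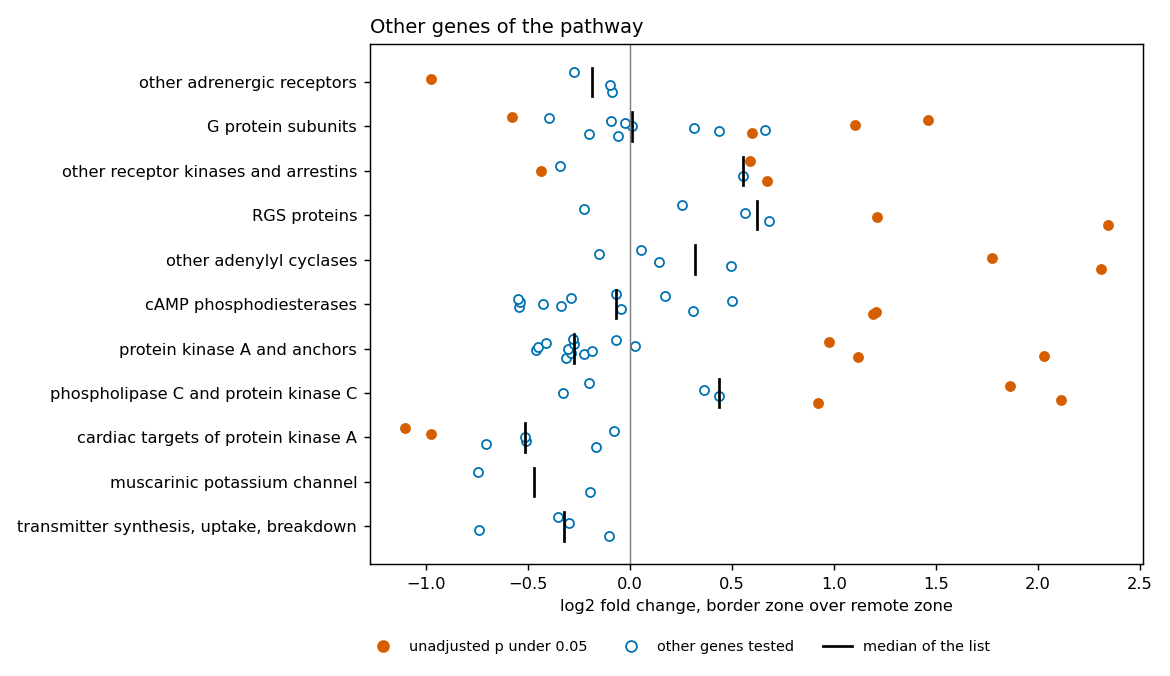
Log2 fold change, border zone over remote zone, of 82 other genes of the pathway grouped by role, with 1 point per gene and a bar at the median of each group; points are spread vertically only for legibility. Cardiac targets of protein kinase A all lie below 0, and the filled points, with an unadjusted p under 0.05, number 17 above 0 and 5 below.

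The border zone library of animal 1022 weighed on many of these values. Without it, the log2 fold change was 0.80 for GNG12 (adjusted p 0.0282, which passes), 0.53 for GNB4, 0.23 for GRK6, 0.25 for ARRB1, 0.74 for RGS2 and 1.55 for RGS10. It was 0.92 for ADCY7, 0.71 for AKAP5, 1.14 for PRKCD, -0.18 for SLC22A3 and -0.01 for KCNJ3. With both libraries of that animal left out, ADCY2 was at 1.42, PDE1A at 0.80 and KCNJ5 at -0.34, and both DDC and KCNJ3 were above 0, KCNJ3 at 0.12. Other animals moved the genes of the last groups. Without animal 1322, KCNJ5 was at -1.19, SLC22A3 at -0.72 and KCNJ3 at -0.48. Without 1323, SLC22A3 was at -0.17 and KCNJ3 at -0.08, and without 3622 DDC was at -1.29.

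Markers of other cells were also compared. The list medians of log2 fold change were 1.13 for 11 smooth muscle and pericyte genes, 1.46 for 9 macrophage genes, 1.21 for 5 lymphocyte genes, 1.08 for 5 adipocyte genes, 0.94 for 7 Schwann cell and nerve genes and 0.12 for 10 endothelial genes, and 0 of the genes in each of these lists passed edgeR's test. With the animal as a block 1 adipocyte gene passed, and without animal 1322 the test called 2 adipocyte genes and 1 smooth muscle or pericyte gene. The adipocyte markers went both ways, since the summed CPM of that list was lower on the border side in 5 of 6 animals. The mean log2 CPM of the 12 fibroblast and matrix genes ran from 7.19 to 10.75 on the border side and from 6.12 to 6.96 on the remote side, with no overlap. The part of these cells in the values of the pathway genes was not tested.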

How the data were processed

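RNA of 6 border zone and 6 remote zone samples was sequenced from poly(A)-selected, nondirectional libraries with paired ends of 150 bp. The deposited values are raw counts of reads per gene, which the authors made with STAR 2.7.10a on Sscrofa11.1 (genes of Ensembl release 113) and featureCounts 2.16.1. Read quality was checked by the authors with FastQC 0.12.1 and MultiQC 1.17. The treatment of reads that match several genes was not given in the sources used here, so near-identical copies are uncertain. Intervals cover the spread between these libraries, and PCR copies were not told apart.

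Tests were run under R 4.3.3, using edgeR 4.0.16 (robust quasi-likelihood test, TMM factors, filterByExpr, region as the only term, Benjamini-Hochberg adjustment, threshold 0.05), limma 3.58.1 and DESeq2 1.42.0. CPM used TMM-scaled totals. Log2 CPM had a prior count of 2 and ratios one of 0.5. Standard errors are log2 fold changes over the square root of F. Loci were taken from RefSeq on Sscrofa11.1. The steps were tested on simulated data. The members, lists and tests were chosen with earlier results of these data known. Genes named outside the 9 are the 2 with the smallest p in each list, any that passed the test, and for likeness the 3 with the highest Pearson r. The result of 1 gene that this rule names is not reported here. TH, GRK3, GRK4, SLC6A2, SLC18A1, ADRA1D, ADRA2A, ADRA2B and LOC100621475 were named after their values or positions were seen.

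Each number in the sample titles marks 1 pig sampled in both zones, which pairs the libraries. Over 13844 genes, the paired deviations from the zone means had an average correlation of 0.345, the lowest being -0.03 (1022) and the highest 0.572 (1323), with 4 of 6 above 0.1. No 2 libraries of a zone agreed within sampling noise. The alternatives were the animal block, DESeq2, its size factors in edgeR, scaling by library totals, removal of mitochondrial genes, testing without the filter, a floor of 10 counts in every library, each animal left out, other prior counts and the median in place of the mean. Leaving out a single border zone library and the test between animals were chosen after seeing the data.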

Additional observations from a re-analysis of the deposited data

Results flagged for a closer look

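In 26 groups of 6 libraries, those in which the highest or lowest library lay far from its nearest neighbour were picked out. Chance gives about 1 in 20 such groups, and 3 were found. The log2 CPM of GRK2 was 6.61 in the remote zone library of animal 1323, where the next was 6.44. The log2 ratio of GRK2 to GRK5 reached 1.18 for animal 1022 in the border zone, where the next was 0.26. The mean log2 CPM of the cardiomyocyte list was 9.94 in that same library, where the next was 11.78.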

How the results depend on the processing

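Under every alternative run, 0 of the 8 genes tested passed the threshold between zones. The count over all genes, 287, was 41 with the animal as a replicate block, 1719 by DESeq2, 1551 with library totals, 139 without the filter and 149 with at least 10 counts in every library. Leaving out an animal gave 0 (without 1623 or 3622) to 519 (without 1322), and 156 without the border zone library of 3622. The pathway count of 0 became 12 by DESeq2, 15 with library totals and 0 to 4 with an animal left out (4 without 1322). It was 1 without the border zone library of 1022 and 1 without that of 3622. The animal block changed no call of these genes.

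Between zones, the 8 genes turned direction only at fold changes near 0, whose intervals all crossed 0. With library totals, which moved the median of all genes from 0.04 to 0.32, ADRA1A was at 0.19, ADRA1B at 0.075, GRK2 at 0.29 and GRK5 at 0.23. With at least 10 counts GRK2 was at 0.020 and GRK5 at 0.012. With the replicate block ADRA1B was at 0.040. CHRM2 was at -0.0045, ADCY5 at 0.40, ADRB1 at -0.19 and ADCY6 at -0.28 with library totals. With an animal left out, CHRM2 ranged from -0.30 to -0.11, ADCY5 from 0.056 to 0.30, ADRA1A from -0.12 to 0.05, ADRA1B from -0.31 to 0.16, GRK2 from -0.10 to 0.020 and GRK5 from -0.11 to 0.08. Without the border zone library of 1022 ADRA1A was at 0.21 and GRK5 at 0.086, and without that of 3622 they were at 0.12 and 0.01. Between animals, the 27 genes called became 2060 by the likelihood ratio test of DESeq2 and 0 to 861 with an animal left out. The members called became 1 and 0 to 3.

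With an animal left out, the ratio of ADRB1 to CHRM2 ranged from -0.28 to 0.021, that of ADRA1A to ADRA1B from -0.68 to -0.25, that of GRK2 to GRK5 from -0.22 to 0.10 and that of ADCY5 to ADCY6 from 0.55 to 0.87, where 5 animals allow no p below 0.0625. As medians over animals, the ratio of ADRA1A to ADRA1B was -0.63, that of GRK2 to GRK5 -0.19, that of ADRB1 to CHRM2 -0.02 and that of ADCY5 to ADCY6 0.74. With no replicate block, which ignores the pairing by animal, the ratio of ADCY5 to ADCY6 was 0.71 with an adjusted exact permutation p of 0.0346. Against the median of the cardiomyocyte list in place of its mean, ADRA1A stood at 0.58, ADRB1 at 0.46 and ADCY6 at 0.32. That choice raises every gene by the same amount, an unchanged gene included. With an animal left out, GRK2 ranged from 0.26 to 0.83 against the list, ADRB1 from 0.12 to 0.33 and ADCY6 from 0.049 to 0.17. Apart from that common shift, the cause of these changes was not tested. Depth limits ADRB3 most, with at most 7 reads, followed by ADRA1A and ADRA1B, with as few as 45 and 50.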

Other observations

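Across the 12 libraries, some of the 9 genes had nearly the same profile of log2 CPM. The points share animals and zones and include the low border zone library of 1022, so the values are descriptions. ADRB1 and ADCY6 had a Pearson r of 0.92, CHRM2 and GRK5 of 0.89, GRK5 and ADCY5 of 0.87, CHRM2 and ADCY6 of 0.85 and ADRB1 and CHRM2 of 0.81. GRK2 stood apart, with an r from -0.53 to 0.01 to the others.

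Among 10206 genes with a symbol and a mean log2 CPM of at least 1, the genes most like each one were as follows. For ADRB1 they were CDH2, which encodes N-cadherin, at an r of 0.972, BLCAP at 0.971 and SLC8A1, the sodium-calcium exchanger, at 0.970. For ADCY6 they were DCAF6 at 0.984, ITGB6 at 0.983 and CCNH at 0.982. For CHRM2 they were PPP2R2A at 0.960, TTC23 at 0.959 and the sodium pump subunit ATP1B1 at 0.955. For GRK5 they were MAP3K5 at 0.952, the splicing factor RBM20 at 0.923 and NEK7 at 0.922. For ADRA1A they were BIRC2 at 0.933, YWHAH at 0.907 and PPP2CB at 0.905, and for ADRA1B LARP4 at 0.901, KIF21A at 0.883 and RALGPS2 at 0.880. For ADCY5 they were GRK5 at 0.873, STYXL2 at 0.856 and CDH13 at 0.854. For GRK2 they were HSPA4L at 0.872, MAX at 0.868 and BCL3 at 0.867.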
